A study of Vitis vinifera with 24 samples.

Results

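A set of 200 grapevine probes, out of 117999 on the array, was chosen by its measured values as the probes whose signal in control berries at the end of veraison lay farthest below that in defoliated berries, among probes with a level mean at the beginning of veraison and a level median at harvest. For each probe, B was the mean log2 intensity of the 6 arrays at the beginning of veraison (BV), E the mean of the 6 arrays of defoliated berries at the end of veraison (EV), and H the median of the 9 arrays at harvest (H). Probes were kept where E lay within 0.25 of B and of H, which 18381 probes (15.6%) did, and the 200 with the largest gap between E and the highest of the 3 control arrays at EV were taken. All 200 are described below and none was filtered out. The gap ran from 1.73 to 4.36 on the log2 scale with a median of 2.09, a factor of 4.24 in intensity. It was 1.74 and 1.73 for the last members inside the list, and 1.73 for each of the next probes outside it, at ranks 201 and 202.

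Veraison is the point at which the grape berry softens, starts to colour and begins to load sugar. Many transcripts of the green berry decline from then on, while those of anthocyanin synthesis, cell wall loosening and sugar transport rise. Leaves near the clusters feed the berries and shade them, so their removal changes both the carbon supply and the light and heat at the berry surface.

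The berries came from field-grown adult Sangiovese vines of clone 12T on SO4 rootstock. Vines were left untreated (C), or lost the main and lateral leaves of the 6 basal nodes of each shoot before bloom (PB, at Julian day 147) or at veraison (V, at Julian day 211). RNA of the seedless berry tissue was labelled with Cy3 and measured on 24 arrays of 1 colour. There were 8 groups of 3 arrays, namely C and PB at BV and all of C, PB and V at EV and at H. In the study's account, each array held a pool of 30 berries from 3 vines of a vineyard block. The replicates would then differ in block but come from 1 vineyard and season. The 18 arrays of PB, V and C at BV are labelled with the defoliation experiment, whereas the 6 remaining C arrays, of EV and H, carry labels of a cluster-thinning experiment with its own untreated vines. Whether the account of block, vineyard and season holds for these 6 C arrays was not tested. The deposited values are fluorescence intensities that had already been normalized. The median log2 intensity of the grapevine probes still ran from 8.10 on C at EV replicate 1 to 8.49 on PB at BV replicate 3. The files do not pair identifiers with genes or sequences, so the members are given without gene, function or probe sequence, and the tissue could not be checked against marker genes. In pooled tissue, fewer cells of a type and less transcript per cell cannot be told apart. The array also carries 19091 probes of random sequence as negative controls. Their mean log2 intensity on an array, called the random-probe level here, gives a reference for background.

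The working description of these probes as lowered only in C at EV did not hold for single arrays, and they are called the members here. On 4 of the 9 harvest arrays, C at H replicates 2 and 3 and PB at H replicates 1 and 2, the members were low as well. The rule could not see this, because a median over 9 arrays stays level when up to 4 of them fall. Relative to E, the median member stood at -0.85 on C at H replicate 2, -1.37 on C at H replicate 3, -0.96 on PB at H replicate 1 and -2.50 on PB at H replicate 2. On the other 5 harvest arrays it stood at 0.28 (C at H replicate 1), 0.19 (PB at H replicate 3), and 0.05, 0.45 and 0.27 (V at H). For the 8018 probes that met the limits and whose E lay in the members' range (7.13 to 13.32), the median on PB at H replicate 2 was -0.16. The members thus lay deeper on that array than on C at EV replicate 2, an array that the rule itself had used.

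At BV the level of the members was even between arrays. The median log2 intensity was 9.39, 9.40 and 9.60 on the C arrays and 9.33, 9.42 and 9.41 on the PB arrays, and the groups overlapped. The difference between PB and C there, which the rule did not compare, had a median of -0.07 over the members and of 0.0023 over all probes. None of the 200 members was called (Benjamini-Hochberg adjusted p below 0.02 over all probes together with a 2-fold difference, limma), and neither was any other probe (0% of 117999). At an unadjusted p below 0.05 there was 1 member (0.5%), beside 859 of all probes (0.73%).

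At EV the members stood at 9.48, 9.65 and 9.26 in PB and at 9.57, 9.18 and 9.41 in V, so that these groups overlapped and lay at the level of BV. The C arrays stood at 5.85, 6.74 and 6.00. That separation is what the rule selected. As a description, 187 members were called higher in PB than in C and 179 higher in V than in C, beside 12.2% and 11.2% of all probes, and both comparisons share the same C arrays. The mean drop of a member in C, taken from E, had a median of 2.87 and was at least 1.77 in all 200 members. Between PB and V at EV, which the rule did not compare, the median member difference was 0.05 and the range -0.65 to 0.95. None of the members or of all probes was called (0%), and 1 member (0.5%) had an unadjusted p below 0.05, beside 1347 of all probes (1.14%).

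How far the members fell in C could only be bounded for many of them, because they reached background. On C at EV replicates 1, 2 and 3, 164, 77 and 137 of the 200 members lay below the random-probe level measured there. On all 3 arrays 69 members did, on 2 arrays 70, on 1 array 31 and on none 30. With values below that level raised to it, the median drop was 2.30 in place of 2.87. For the 69 members below it throughout, this floor gives a signal at least 2.83-fold lower than in the defoliated berries (median over members of the bound, from 1.32 to 11.6). With the members ordered by E, the median drop was 2.36 in the lowest 50, then 2.85 and 3.37 in the next sets of 50, and 3.22 in the highest 50, where E is itself a term of the drop.

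VitusP00043600 had the largest gap of all members. Its log2 intensity in C was 9.55, 10.38 and 10.41 at BV, 5.77, 5.88 and 5.82 at EV, and 10.31, 9.69 and 8.95 at H. In PB it was 10.11, 9.82 and 10.32 at BV, 9.99, 10.76 and 10.31 at EV, and 9.65, 8.02 and 10.85 at H. In V it was 10.49, 9.64 and 10.26 at EV and 10.26, 10.85 and 10.02 at H. The C arrays at EV averaged 5.82 ± 0.06 (SD, n = 3), lay apart from all the others and were all below the random-probe level, so the signal was at least 11.4-fold lower. At harvest the groups overlapped, with PB at H replicate 2 the lowest array.

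VitusP00036009, next in rank, was low at both later stages. In C its log2 intensity was 9.81, 8.91 and 10.37 at BV, 5.61, 5.46 and 5.79 at EV, and 10.16, 7.63 and 5.84 at H. In PB it was 9.18, 10.03 and 9.79 at BV, 9.45, 10.13 and 9.81 at EV, and 7.48, 5.27 and 10.48 at H, whereas V stood at 9.81, 9.51 and 10.06 at EV and at 9.66, 10.69 and 11.07 at H. C at H replicate 3 and PB at H replicate 2 thus came down to the level of the C arrays at EV, where the signal was at least 8.34-fold lower. The difference between V and C at H was 2.59 (standard error 0.95, adjusted p = 0.20 by limma), which did not pass the threshold.

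The members with the most negative difference between V and C at H had another harvest pattern. VitusP00274597 had a log2 intensity of 6.28, 8.81 and 8.98 in C at BV, 5.16, 6.08 and 6.26 in C at EV, and 9.05, 9.32 and 8.89 in C at H. In PB it stood at 8.58, 7.88 and 8.92 at BV, 8.78, 8.40 and 8.43 at EV, and 6.09, 6.07 and 8.35 at H, and in V at 8.01, 7.54 and 8.05 at EV and 8.31, 8.65 and 6.43 at H. Its C arrays were the lowest of the 3 treatments at EV and the highest at H. VitusP00114062 had 6.43, 6.39 and 7.95 in C at BV, 4.87, 5.17 and 4.66 in C at EV, and 7.80, 8.19 and 7.93 in C at H. In PB it had 7.31, 6.75 and 6.68 at BV, 7.54, 7.71 and 7.44 at EV, and 5.61, 5.65 and 6.97 at H, and in V 6.64, 6.47 and 6.96 at EV and 7.05, 7.48 and 6.29 at H. In both probes all C arrays at H lay above all PB and V arrays at H, the reverse of their order at EV. Both were named for a low V minus C at H, so this order is a description. All C arrays at H lay above all PB arrays at H in 3 members (1.5%), beside 5.61% of all probes. The difference between PB and C at H was -2.25 (standard error 0.67, adjusted p = 0.26) for VitusP00274597 and -1.90 (standard error 0.42, adjusted p = 0.12) for VitusP00114062, so neither passed the threshold. At EV both were below the random-probe level on all C arrays, and their signal was at least 2.77-fold and at least 1.32-fold lower there.

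The replicates of the members lay farthest apart in PB and C at harvest. The SD between the 3 replicates, as a median over the members, was 1.55 in PB at H and 0.98 in C at H, against 0.61 and 0.51 over all probes and 0.47 and 0.39 over the 8018 probes of the same E range that met the limits. It was 0.58 in C at EV, against 0.68 over all probes and 0.71 over the 8018. The rule favoured probes that were low on all C arrays at EV, and many values there lay below the random-probe level. The SD in C at EV is therefore not independent of the choice. In V at H the SD was 0.37, against 0.39 over all probes and 0.27 over the 8018, and in the remaining groups it lay between 0.26 and 0.32. The log2 intensities of the members on PB at H replicate 2 ran from 4.92 to 15.15, and 92 of the 200 lay below the random-probe level. On C at H replicates 2 and 3 and PB at H replicate 1, 29, 32 and 36 members did. On the other 5 harvest arrays together, 2 did, both on V at H replicate 1.

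Counted per member, 193 of the 200 fell by more than 1 below E on at least 1 of the 4 low harvest arrays, and 13 did so on at least 1 of the other 5. Only 7 members (3.50%) had no such value on any of the 9 harvest arrays. Among the 8018 probes of the same E range that met the limits, 61.6% had none. On C at H replicate 2, 94 members were more than 1 below E (47.0%, against 11.0% of those 8018 probes), on C at H replicate 3 128 (64.0% against 11.6%), on PB at H replicate 1 98 (49.0% against 9.93%) and on PB at H replicate 2 174 (87.0% against 23.5%). On the other 5 harvest arrays the counts were between 0 and 8, and at BV between 0 and 12, the 12 being on C at BV replicate 1. The lowest of a member's 24 values was on C at EV replicate 1 for 83 members, on replicate 3 for 47 and on replicate 2 for 13, but on PB at H replicate 2 for 38 and on another array for 19. The value on PB at H replicate 2 lay below the highest of the 3 C values at EV in 119 members.

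The members were not alike in this. A group of 47 was more than 1 below E on all 4 of these harvest arrays, with medians of -2.12, -2.24, -2.18 and -3.23 relative to E on C at H replicates 2 and 3 and PB at H replicates 1 and 2. Their median drop in C at EV was 3.25. A further 108 members were low on 2 or 3 of the 4 arrays, with a median drop at EV of 2.80, and 45 were low on 1 or none, with a median drop at EV of 2.78. In these 45, the median on PB at H replicate 2 was still -1.48. Over the 200 members, the differences from E on C at H replicate 2 were correlated with those on C at H replicate 3 (r = 0.49) and on PB at H replicate 1 (r = 0.53), and only weakly with those on PB at H replicate 2 (r = 0.07) or C at EV replicate 2 (r = 0.02). The values of PB at H replicate 2 were most closely related to those of C at EV replicates 1 and 3 (r = 0.38 for each). These are descriptions over probes that share arrays and the E level, not tests.

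The 7 arrays on which the members were low were also the 7 arrays with the highest random-probe level. This level was 7.15, 6.31 and 6.73 on the C arrays at EV, 6.29 and 6.26 on C at H replicates 2 and 3, and 6.38 and 6.56 on PB at H replicates 1 and 2. On the other 17 arrays it was at most 6.03, and there the median member lay between -0.22 and 0.45 of E. Grapevine and random-sequence probes appear to have been normalized together, which was not tested. The random-probe level may thus be no measure apart from the grapevine probes, and its part in the low values of the members was not tested. Of the 6 arrays labelled with the cluster-thinning experiment 5 were low, all but C at H replicate 1, and of the 18 labelled with the defoliation experiment 2 were, PB at H replicates 1 and 2. The part of the label set was not tested, and at EV, it and the control treatment cannot be told apart.

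The rule did not compare the groups at harvest, but it held the median of the 9 harvest arrays near E, so the group differences there are not independent of it. They are given as a description, beside those of all probes and of the 8018 probes of the same E range that met the same limits. In V minus C and PB minus C at harvest, the label set and the control treatment cannot be told apart. The limma fit used 1 spread per probe, shared by all 8 groups. The members' median SD was 1.55 in PB, 0.98 in C and 0.37 in V at harvest. The unadjusted p values can therefore understate the spread in PB and C. V lay above C in 184 of the 200 members, with a median log2 difference of 0.96 (quartiles 0.47 and 1.41, range -1.29 to 3.14), against a median of -0.04 over all probes and 0.024 over the 8018. The difference reached 2-fold in 96 members, beside 10.6% of all probes and 7.78% of the 8018. At an unadjusted p below 0.05, 64 members were higher in V and 1 lower, beside 7.87% of all probes higher and 8.83% lower, and 5.53% and 6.29% of the 8018. After adjustment no member was called (lowest adjusted p = 0.18, limma), as was the case for all probes (0%). All V arrays lay above all C arrays in 27 members (13.5%), beside 7.93% of all probes and 8.82% of the 8018. Without C at H replicate 1 the median was 1.40 and 23 members (11.5%) were called, beside 2.46% of all probes in that fit. Without any of the other arrays of these groups the median was between 0.60 and 1.08 and no member was called.

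PB lay below V at harvest in 197 members, with a median difference of -1.41 (quartiles -1.92 and -0.89) against 0.06 over all probes and -0.06 over the 8018. The difference reached 2-fold in 133 members, beside 12.5% of all probes and 11.3% of the 8018, and 111 members (55.5%) were lower at an unadjusted p below 0.05, beside 9.59% of all probes and 8.12% of the 8018. No member passed the adjusted threshold (lowest adjusted p = 0.13, limma), nor did any of all probes (0%). All V arrays lay above all PB arrays in 35 members (17.5%), beside 7.77% of all probes and 9.68% of the 8018. Without PB at H replicate 3, 67 members (33.5%) were called, beside 5.21% of all probes in that fit, and the median was -2.10, while without PB at H replicate 2 none was called and the median was -0.62.

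Between PB and C at harvest, the median difference was -0.40 against -0.02 over all probes and -0.05 over the 8018, with 55 members higher in PB. No member was called and no probe of the whole array (0%), and the lowest adjusted p of a member was 0.12 (limma). At an unadjusted p below 0.05, 3 members were higher and 15 lower in PB. Of all probes, 4.44% were higher and 4.73% lower, and of the 8018, 1.76% and 2.97%. In either direction the share was 9.0% of the members, near the 9.16% of all probes. The direction depended on single arrays. The median was 0.32 without PB at H replicate 2, 0.16 without C at H replicate 1 and -1.03 without PB at H replicate 3. In these fits 0, 1 and 6 members were called. The share called over all probes was 0.0381% without C at H replicate 1, which gave 1 member (0.50%), and 0.401% without PB at H replicate 3, which gave 6 (3.0%).

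Whether the drop in C at EV was shared by a C array left out of the choice was described by leaving out each C array at EV from the rule and reading the members so chosen on that array. The measure is still taken from E, and E, the limits and the other C arrays at EV still chose the probes. All C arrays at EV also share a label set and a raised random-probe level. The values are thus a description and no independent replication. On C at EV replicate 1, the 200 probes chosen without it had a median drop of 3.04, and 194 of them (97.0%) were at least 1 below E, against 39.8% of the probes that met the limits in the same range of E. On C at EV replicate 3 the median drop was 2.81, with 188 probes (94.0%) at least 1 below E, against 29.3%. On C at EV replicate 2 the median drop was 0.93, and 94 probes (47.0%) were at least 1 below E, against 12.7%. The list itself rested most on C at EV replicate 2, which held the highest C value at EV in 125 members. Without it, 36 of the 200 members were chosen again, against 176 without replicate 1 and 167 without replicate 3.

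Of the 18381 probes that met the limits, 715 (3.89%) had a gap of at least 1 in C at EV. Of the 13297 probes with E within 0.25 of B and all 9 harvest arrays within 1 of E, 126 (0.948%) did, and 15 had a gap as large as that of the members. Of these 15 probes, 7 are among the 200 members. These 7 are also the members that had no value more than 1 below E at harvest, with a median E level of 8.51 and a median drop in C at EV of 2.37.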

How the data were processed

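Pericarp RNA of pools of 30 berries was hybridized to NimbleGen arrays of 1 colour (Cy3). The authors deposited a normalized fluorescence intensity per probe on a linear scale. Whether the distributions of the 24 arrays match was not tested. Background correction and normalization software are not given in the sources used here. Of 139363 rows, 137090 held values, of which 117999 are grapevine and 19091 random-sequence probes. Intensities were used as log2 values without a filter. The members and lists were chosen with earlier results of these data known.

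Groups were compared with limma 3.58.1 (R 4.3.3) by lmFit and eBayes, with 8 group means over 24 arrays and 16 residual degrees of freedom. Benjamini-Hochberg adjustment was over all grapevine probes, and a probe was called at an adjusted p below 0.02 with a log2 difference of at least 1, the thresholds of the study, whose own test (SAM on genes) was not run. With 3 arrays a group, their number limits the precision. The spread of a probe was estimated once over all groups. Standard errors and p values at harvest can therefore understate the spread of the members in PB and C, whose replicates lay farthest apart there. The fit was tested on simulated data. Named probes were the 2 members of largest gap and the 2 with the most negative V minus C at H. The highest correlation between arrays was 0.979, so all were kept as separate samples. Alternatives were other scalings, filters on dim probes, other fits, thresholds and limits of the rule, and leaving out arrays.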

Additional observations from a re-analysis of the deposited data

How the results depend on the processing

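The counts of called members stayed at 0 in all 5 comparisons under both other scalings, both probe filters (without the dimmest 25%, and above the random-probe level), the fit of only the groups compared, trended and robust eBayes, an adjusted p below 0.05, no minimum difference and the random-probe level as a covariate. With the replicate number as a replicate block they were also 0. Same-numbered samples did not deviate together (correlations from -0.37 to 0.31), so the numbers were not taken as pairs. Leaving out single arrays gave 0 to 23 called members for V minus C at H, 0 to 6 for PB minus C at H and 0 to 67 for PB minus V at H, where at most 2.46%, 0.401% and 5.21% of all probes were called. Leaving out the 4 low harvest arrays was an alternative added after seeing the data. The median differences were then -0.014 for V minus C and -0.029 for PB minus V at H. C at H was then replicate 1 alone and PB at H replicate 3 alone, so these are not differences between replicated groups. The arrays were left out because the members were low on them, and the rule holds the harvest median near E. These values are therefore not independent of that choice. The median drop in C at EV was 2.30 with a floor at the random-probe level. The list depended on the limits of the rule. Of the 200 members, 87 were kept with a limit of 0.15 and 45 with 0.5, 72 with the mean of the C arrays in place of the highest, 42 with the mean of the harvest arrays, 110 with H from PB and V only, and 36 to 176 on leaving out a C array at EV. With alternatives added after seeing the data, 24 were kept with H from the 5 other harvest arrays and 7 with all 9 harvest arrays within 1 of E. Median centring with MAD scaling, which moves array medians by up to 0.37 (C at EV replicate 1), kept 169, and quantile normalization of the grapevine probes kept 171.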

Other observations

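The identifiers of the members were spread over the numbering of the array, from 9876 to 293868, and only 3 pairs of members were neighbours in identifier order. The 394 probes next to a member in that order, which the rule did not choose, were lower in C at EV than in the defoliated berries by a median of 0.55 on the log2 scale, against 0.01 over all grapevine probes. Of these neighbours 158 (40.1%) were at least 1 lower in C, against 22.8% of all probes, and 10.9% were at least 1 higher, against 18.2%. The neighbours were not matched to all probes for E, and such shares vary with E. On C at EV replicate 1, 21.1% of the probes that met the limits were more than 1 below E. Of those in the members' E range, 40.8% were. Of the 394, 71 met the limits on B, E and H. No table used here tells whether neighbouring identifiers belong to the same gene, and the contrast is the one that chose the members, so these values are a description.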
